A study of Mus musculus with 2 samples.

Results

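Foxd1 and 8 further transcription factor genes of the newborn mouse kidney, namely Tbx18, Meis1, Meis2, Tcf21, Ebf1, Nr2f1, Gata3 and Snai2, were followed across the cell classes of the organ. They were taken by symbol from the 32285 genes of the count tables, where all 9 were found. The kidneys were collected at postnatal day 0 from mice of the genotype Rbpj c/+ ; Foxd1cre/+, in which the Rbpj c allele and the Foxd1cre allele, which carries the recombinase Cre, each stand beside a + allele. Droplet-based sequencing of the 3′ ends of transcripts in single cells gave 2 libraries of that 1 genotype, called replicates 1 and 2 here. No other genotype was analysed here, so all comparisons are between cell classes of the same 2 libraries, and none compares genotypes. The labels do not say whether, or in which cells, Cre acted on the Rbpj c allele. If it acted in some classes only, its effect could not be told apart from the class, and this was not tested. The labels do not say whether a library holds 1 animal or a pool, nor whether the Cre allele still gives Foxd1 transcripts, so Foxd1 counts may come from 1 or both alleles.

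The kidney stroma is the connective tissue between the nephrons. Foxd1 marks its progenitors, which give rise to cortical and medullary interstitial fibroblasts and to mural cells, the pericytes, mesangial cells, smooth muscle cells and renin cells of the vessels. The factors studied here belong to different DNA-binding families and are used by many cell types. Foxd1 and Tcf21 are also known in podocytes, the filtering epithelium of the glomerulus, and Gata3 in the ureteric bud, the epithelium that branches to form the collecting ducts.

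The members are described by GRCm38 coordinates from the GENCODE M21 annotation. Foxd1 (ENSMUSG00000078302, chr13:98354242-98359305, plus strand) is a forkhead gene with 1 exon. Tbx18 (ENSMUSG00000032419, chr9:87702800-87731260, minus strand) is a T-box gene of ureteric and vascular mesenchyme. Meis1 (ENSMUSG00000020160, chr11:18879817-19018985, minus strand) and Meis2 (ENSMUSG00000027210, chr2:115863064-116065839, minus strand) encode homeodomain partners of Hox proteins. Tcf21 (ENSMUSG00000045680, chr10:22817281-22820174, minus strand) encodes a basic helix-loop-helix factor of kidney mesenchyme and podocytes. Ebf1 (ENSMUSG00000057098, chr11:44617317-45008091, plus strand) encodes an early B-cell factor that is also made by mesenchyme. Nr2f1 (ENSMUSG00000069171, chr13:78188973-78199757, minus strand) encodes the orphan nuclear receptor COUP-TFI. Gata3 (ENSMUSG00000015619, chr2:9857078-9890034, minus strand) encodes a GATA zinc finger protein, and Snai2 (ENSMUSG00000022676, chr16:14705852-14709385, plus strand) a Snail-type repressor. Genes on the opposite strand overlap Tbx18, Meis1, Tcf21, Ebf1, Nr2f1 and Gata3, and genes on the same strand overlap Meis1 and Gata3. No source used here says how the counting treated strand, so how reads shared between these 6 members and their partners were assigned is not known.

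Promoter sequences are shown for Foxd1 and Tcf21, which had the most similar levels across classes among all pairs of members, for Meis1 and Meis2 as paralogues, and for Gata3, which was low where most members were high. Each is the 250 bases before the start site, 5′ to 3′ on the gene's own strand, from RefSeq on GRCm38.p6, with matches to the searched motifs in capitals. The Gata3 and Meis2 windows lie wholly inside the GENCODE genes given above, so their starts are not the annotated 5′ ends. Bases before those ends were not searched. Of the 9 members, 8 were in the promoter table; Snai2 was not.
Foxd1, chr13:98353995-98354244, plus strand: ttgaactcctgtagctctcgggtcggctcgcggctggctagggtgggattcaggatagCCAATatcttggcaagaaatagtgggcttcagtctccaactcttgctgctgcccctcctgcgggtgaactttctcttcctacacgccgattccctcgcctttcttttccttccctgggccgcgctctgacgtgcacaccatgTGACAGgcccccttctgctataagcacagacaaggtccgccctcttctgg
Tcf21, chr10:22820144-22820393, minus strand: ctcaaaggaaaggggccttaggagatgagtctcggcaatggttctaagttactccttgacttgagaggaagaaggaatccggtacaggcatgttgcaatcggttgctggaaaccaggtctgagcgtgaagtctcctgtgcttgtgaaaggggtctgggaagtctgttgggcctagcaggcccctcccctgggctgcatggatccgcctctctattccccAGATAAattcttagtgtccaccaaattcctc
Meis1, chr11:19018970-19019219, minus strand: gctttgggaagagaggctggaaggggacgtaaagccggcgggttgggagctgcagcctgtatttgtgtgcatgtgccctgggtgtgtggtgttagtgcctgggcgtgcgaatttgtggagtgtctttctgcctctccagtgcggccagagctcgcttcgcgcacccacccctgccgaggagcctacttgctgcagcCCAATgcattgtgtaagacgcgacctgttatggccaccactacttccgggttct
Meis2, chr2:116064620-116064869, minus strand: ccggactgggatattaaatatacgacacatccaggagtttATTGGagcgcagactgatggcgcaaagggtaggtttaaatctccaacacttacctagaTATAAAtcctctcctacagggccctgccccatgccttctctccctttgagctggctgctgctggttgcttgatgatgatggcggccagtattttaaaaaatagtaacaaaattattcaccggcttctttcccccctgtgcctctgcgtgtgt
Gata3, chr2:9878601-9878850, minus strand: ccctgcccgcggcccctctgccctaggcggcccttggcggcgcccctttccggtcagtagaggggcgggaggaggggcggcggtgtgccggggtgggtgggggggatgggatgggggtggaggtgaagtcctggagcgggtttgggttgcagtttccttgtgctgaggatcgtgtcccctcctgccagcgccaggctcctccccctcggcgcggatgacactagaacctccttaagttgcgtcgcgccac

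Both strands were searched for motifs of the members' own families and of the basal machinery. The family motifs were TGACAG for MEIS proteins, TGTTTA for forkhead proteins, AGGTCA for NR2F receptors, AGATAA for GATA proteins, the E-box CAGCTG for helix-loop-helix proteins, the E-box CAGGTG for Snail proteins, AGGTGTGA for T-box proteins and the EBF palindrome. The basal motifs were TATAAA and CCAAT. The Snail and T-box motifs can share letters. The Foxd1 window held TGACAG from 50 to 45 bases before the start, a motif found in 15.9% of the 32851 mouse promoters of that length, and CCAAT, found in 33.8%. The Tcf21 window held AGATAA from 31 to 26 bases before the start, which 9.99% of promoters hold. Meis2 held TATAAA, which 12.4% hold, and CCAAT on the reverse strand, and Meis1 held CCAAT only. None of the 10 motifs was found in the Gata3 window, which had 70% G and C and 19 CpG dinucleotides against 57.2% and 12 in Foxd1. A match says only that these letters are present.

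Replicate 1 held 200331687 unique molecular identifiers (UMIs, each standing for 1 captured transcript) and replicate 2 held 173166168. A barcode was kept as a cell if it had 3000 or more UMIs and 500 or more genes, with no more than 20% of its UMIs mitochondrial; 6 kept barcodes occurred in both libraries. After removal of 245 and 142 likely doublets, 5284 and 4064 cells remained. A cell joined a class when 3 or more of that class's markers were detected at or above their level in barcodes under 100 UMIs, which carry free RNA, and when the class led the next by at least 0.1 in the share of its markers. The gates gave 891 and 857 stromal cells, 275 and 189 mural cells, 379 and 198 podocytes, 415 and 273 proximal tubule cells, 307 and 410 loop or distal tubule cells, and 226 and 191 ureteric or collecting duct cells in replicates 1 and 2. No member was a gate marker. The 8 stromal markers summed to 7664 and 6414 counts per 1000000 UMIs (CPM) in stromal cells, against 18.6 and 29.5 CPM in proximal tubule cells. Between the stromal and mural gates, 183 and 186 cells were left ungated. Median depth was 10853 and 15793 UMIs per stromal cell and 31263 and 41365 per proximal tubule cell, so shares of cells are given after thinning every cell to 3000 UMIs.

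One cluster of the stromal gate stood apart and bears on Tbx18. It held 50 cells of replicate 1 and 4 of replicate 2, and 42 of the former were gated as stromal. Those 42 cells were led by the smooth muscle genes Tnnt2 (1813 CPM), Actg2 (2069 CPM) and Myh11 (6413 CPM), which were at 0.52, 1.98 and 23.3 CPM in the other 849 stromal cells of that library. These leading genes go against the name stromal. The marker rule for clusters still placed it with the stroma, and the grouping by clusters counts its cells as stromal. It carried 235 CPM of Tbx18 in replicate 1 and 237 CPM in the 4 cells of replicate 2. Foxd1 had 0 counts there in replicate 1, where 3 counts would be 5.60 CPM, and Ebf1 was at 5.60 CPM against 778 CPM in the other stromal cells. Its cells were 4.71% of the stromal cells of replicate 1 and held 60.9% of their Tbx18 counts, and 19.0% of those of replicate 2. The Tbx18 comparisons are given with and without it.

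Foxd1, the stromal progenitor factor, was not highest in stroma. Its level was 185 and 168 CPM in podocytes and 65.7 and 95.8 CPM in stromal cells. Nephron progenitors had 29.7 and 28.7 CPM, mural cells 9.53 and 21.2 CPM, and each of the 3 tubular classes 0.386 to 0.582 CPM. Podocytes lay above stromal cells in both libraries, with no overlap, and the 3 tubular classes overlapped one another. Barcodes of free RNA held 11.8 and 16.2 CPM of Foxd1. Here and for the members below, that is a share within free RNA, not the amount it adds to a cell. The tubular levels were far below that share, and the mural levels were far above the tubular ones. How much of the mural level came from free RNA was not tested. With each cell thinned to 3000 UMIs, Foxd1 was detected in 45.9% and 47.5% of podocytes, 15.7% and 19.1% of stromal cells, and 0.241% and 0% of proximal tubule cells, where the exact 95% upper bounds were 1.34% in both libraries.

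Tcf21, which is needed for stromal and glomerular development, ranked the same classes in a similar order. Podocytes had 499.8 and 379 CPM and stromal cells 318 and 335 CPM, so that podocytes were higher in both libraries. Mural cells followed at 93.3 and 83.9 CPM. Nephron progenitors at 24.8 and 26.9 CPM lay just above early nephron cells at 21.4 and 20.6 CPM, and immune cells had no Tcf21 count, where 3 counts would be 1.97 and 2.67 CPM. Over the 22 sums of 11 classes and 2 libraries, Foxd1 and Tcf21 had a Pearson r of 0.926 on log2(CPM + 5). Sums of 1 library share their free RNA and sums of 1 class share a cell type, so this and the correlations that follow are descriptions.

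Meis1 was highest in stromal cells, at 806 and 1064 CPM, and next in mural cells, at 379 and 473 CPM. Nephron progenitors had 102 and 164 CPM, which overlapped the erythroid values, and the loop or distal and ureteric classes had 1.99 to 7.35 CPM. Its paralogue Meis2 had a wider range of classes. Endothelial cells held 2695 and 2649 CPM, above stromal cells at 1448 and 1622 CPM, nephron progenitors at 1344 and 1465 CPM, and mural cells at 927 and 858 CPM. Stromal cells and nephron progenitors overlapped for Meis2 and were far apart for Meis1. Podocytes held 335 and 190 CPM of Meis2 and 47.3 and 40.9 CPM of Meis1.

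Ebf1 was highest in mural cells, at 1923 and 2409 CPM, ahead of stromal cells at 737 and 881 CPM and endothelial cells at 648 and 706 CPM. All podocyte, tubular and nephron progenitor values were between 2.46 and 11.5 CPM, and free RNA held 155 and 181 CPM. Snai2 was led by stromal cells at 138 and 142 CPM, with mural cells at 109 and 85.0 CPM. Nephron progenitors had 19.9 and 18.3 CPM and endothelial cells 29.5 and 19.4 CPM of Snai2, against 17.0 and 17.2 CPM in free RNA. Tbx18 was a low transcript, with 20.4 and 6.04 CPM in stromal cells and 2.52 and 1.65 CPM in mural cells. Outside the cluster described above, stromal Tbx18 was 8.43 and 4.91 CPM, still above mural cells in both libraries.

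Nr2f1 and Gata3 did not follow the stroma. Nr2f1 was highest in mural cells, at 89.9 and 81.4 CPM, then in early nephron cells at 64.5 and 57.6 CPM and nephron progenitors at 54.3 and 45.2 CPM. Stromal cells held 31.8 and 30.3 CPM, beside a share of 22.2 and 31.9 CPM within free RNA. Ureteric or collecting duct cells of the same libraries held 3.40 and 2.04 CPM. Gata3 was highest in ureteric or collecting duct cells, at 562 and 394 CPM, followed by mural cells at 275 and 242 CPM. Stromal cells held 6.80 and 3.38 CPM, below the free RNA level of 49.5 and 50.6 CPM. The stromal gate held 0.731% and 0.772% of the Gata3 counts of all gated cells, against 90.4% and 90.3% of the Tbx18 counts (83.5% and 88.3% without the cluster held by replicate 1).

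**Figure D1:**
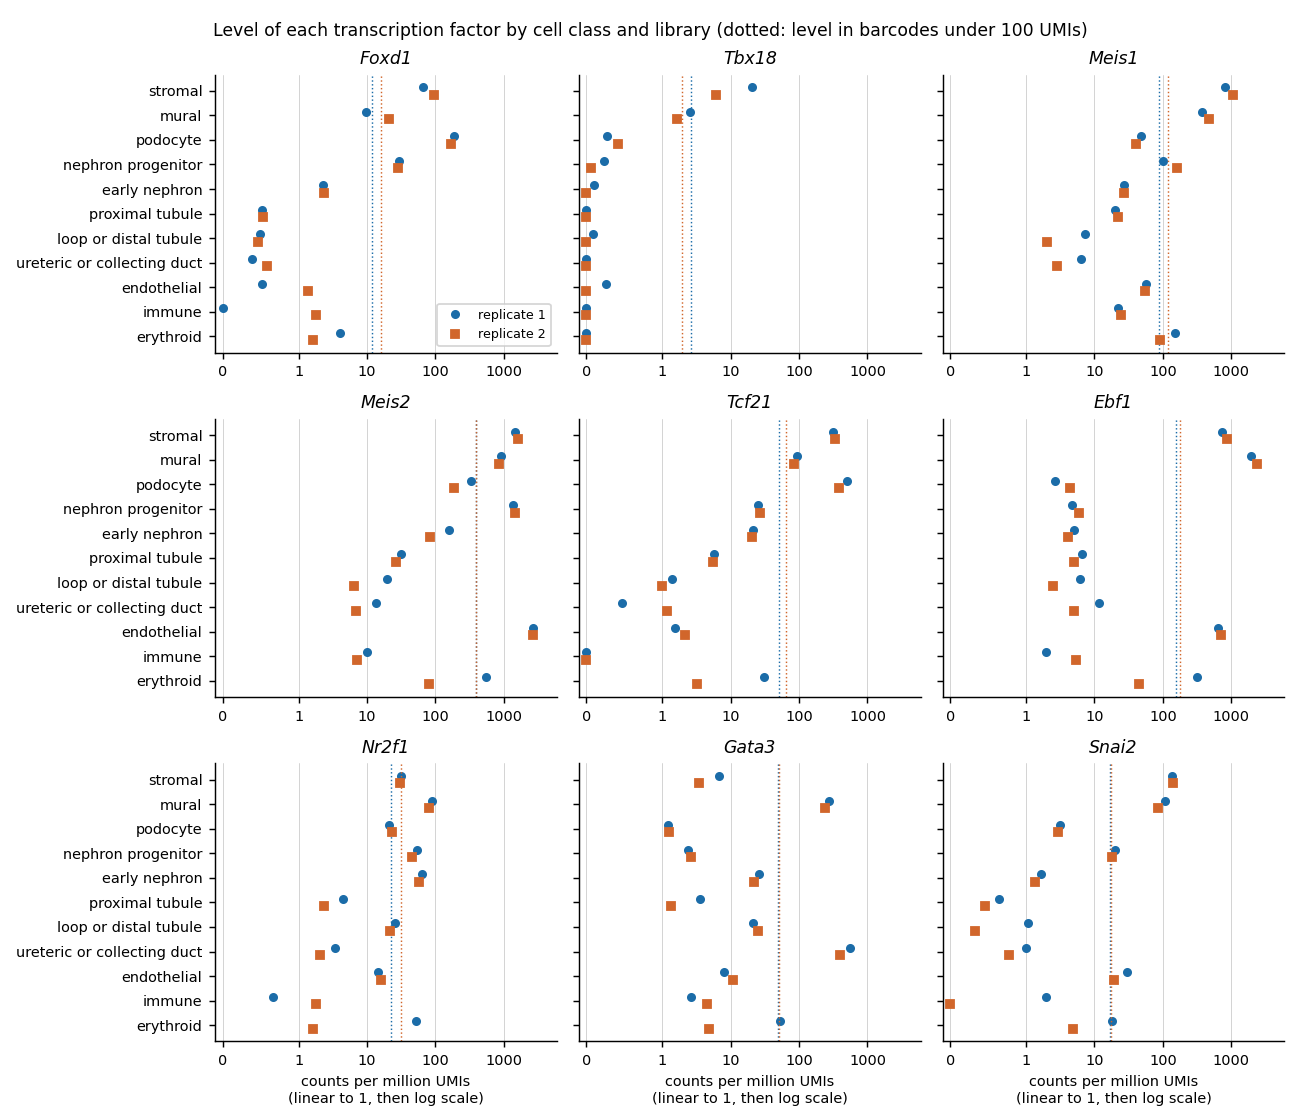
Each panel plots 1 transcription factor, with CPM on the horizontal axis (linear up to 1, then logarithmic) and the 11 cell classes on the vertical axis. Circles are replicate 1, squares replicate 2, and dotted lines the level in barcodes under 100 UMIs; Foxd1 and Tcf21 peak in podocytes, Ebf1 and Nr2f1 in mural cells, Meis2 in endothelial cells and Gata3 in ureteric or collecting duct cells.

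The first comparison asks how the stromal factors are kept or lost in mural cells, which are known to descend from Foxd1 stroma. Gata3, Nr2f1 and Ebf1 were higher in mural cells, and Tbx18, Foxd1, Tcf21, Meis1 and Snai2 were lower. Sums of counts over the cells of a class in a library were tested with edgeR's quasi-likelihood F test with the library as a block, and p-values were adjusted by the Benjamini-Hochberg method over 18400 genes. At an adjusted p under 0.05, 8 of the 9 members were called, 3 higher and 5 lower, where 12.7% of all genes tested were called (6.46% higher and 6.28% lower). The members' median log2 fold change was -0.86, beside -0.06 over all genes tested.

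Gata3 differed most, with a log2 fold change of 5.66 ± 0.32 (SE, adjusted p = 1.48e-08), to levels 40.5 and 71.6 times the stromal level in replicates 1 and 2. Nr2f1 was higher by 1.41 ± 0.21 (adjusted p = 0.000202) and Ebf1 by 1.37 ± 0.29 (adjusted p = 0.00438). Foxd1 fell by 2.46 ± 0.25 on the log2 scale (adjusted p = 3.74e-06), to levels 6.90 and 4.52 times lower than in stroma. Tcf21 fell by 1.94 ± 0.17 (adjusted p = 1.95e-06). Smaller differences were seen for the homeodomain genes Meis1 and Meis2 and for Snai2. Meis1 fell by 1.19 ± 0.35 (adjusted p = 0.0349) and Snai2 by 0.60 ± 0.17 (adjusted p = 0.0252). Without the library block their adjusted p-values were 0.0699 and 0.161, and both calls were also lost with DESeq2, at 0.0995 and 0.16. Over the 11 tested alternatives Meis1 lay between -1.68 and -1.12, with adjusted p-values from 0.000122 to 0.0995. Snai2 lay between -1.64 and -0.52, with adjusted p-values from 2.26e-05 to 0.161. Meis2 was at -0.86 ± 0.29 and did not pass (adjusted p = 0.062), but it passed under 4 alternatives, with adjusted p-values from 0.00106 to 0.0213. Tbx18 fell by 2.59 ± 0.50 (adjusted p = 0.00378), and without the cluster held by replicate 1 it was at -1.80 ± 0.58 and did not pass (adjusted p = 0.0609).

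Markers of stromal cells summed to 1270 and 1287 CPM in the mural gate, with none of the 8 at 0, and their part in these differences was not tested. With classes taken from clusters in place of gates, Foxd1 was at -4.18 and Tcf21 at -4.44 in mural cells.

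Subsets of the mural gate, chosen after the first values were seen, were described without a test. Mural cells with Ren1, the renin gene, numbered 48 and 55 and had 291 and 297 CPM of Gata3 and 123 and 123 CPM of Nr2f1. The 27 and 24 cells with Myh11, a smooth muscle myosin, and no Ren1 had 144 and 127 CPM of Gata3 and 58.2 and 55.4 CPM of Nr2f1. The 200 and 110 cells with neither had 288 and 242 CPM of Gata3 and 87.3 and 70.0 CPM of Nr2f1. For both genes the cells with Ren1 and those with Myh11 did not overlap. Ebf1 was likewise higher with Ren1, at 2255 and 2781 CPM, than with Myh11 alone, at 1216 and 1594 CPM. Foxd1 had 3 counts in each library among the cells with Ren1.

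Lists of related genes gave the setting for the members. Of 26 tested relatives from the same families, 1 was higher in mural cells and 4 were lower. Tbx2, a T-box repressor, was higher by 1.45 ± 0.23 (adjusted p = 0.000295), opposite in direction to Tbx18. Pknox2, a homeodomain gene of the TALE class to which Meis1 belongs, fell by 1.94 ± 0.18 (adjusted p = 1.87e-06). Of 29 tested other regulators of stroma, 5 were higher and 14 lower. The largest changes among the genes that passed were Mef2c at 3.56 ± 0.27 (adjusted p = 1.65e-07), a muscle regulator, Foxf1 at -3.34 ± 0.93 (adjusted p = 0.0373) with 1 count in each mural library, and Heyl at 3.08 ± 0.22 (adjusted p = 1.15e-07), a Notch target. Relatives had a median log2 fold change of -0.14 (-0.13 with genes at 0 set at their bound) and the other regulators of -0.60.

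Podocytes were compared with stromal cells next, since both hold Foxd1 and Tcf21. Foxd1 was higher in podocytes, and Ebf1, Snai2, Tbx18, Meis1, Meis2 and Gata3 were lower. Of the 9 members 7 were called, 1 higher and 6 lower, where 47% of all genes tested were called (23% higher and 24% lower). The members' median log2 fold change was -2.65, beside -0.01 over all genes tested.

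Foxd1 was higher by 1.13 ± 0.20 on the log2 scale (adjusted p = 0.000222), or 2.81 and 1.76 times the stromal level in the 2 libraries. Tcf21 was at 0.39 ± 0.16 and narrowly failed the threshold (adjusted p = 0.0599), with a 95% interval from 0.07 to 0.71, and it passed under 4 of the 11 alternatives. Ebf1 fell by 7.93 ± 0.43 (adjusted p = 3.39e-10), to 2.69 and 4.43 CPM. Snai2 fell by 5.60 ± 0.24 (adjusted p = 2.07e-11) and Tbx18 by 5.35 ± 0.63 (adjusted p = 1.47e-05), the latter to 2 counts in each library. Without the cluster held by replicate 1, Tbx18 was at -4.37 ± 0.72 in podocytes (adjusted p = 0.00026). Podocytes thus held Foxd1 with almost no Ebf1, while stromal cells held both.

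The 2 MEIS genes kept different shares of their stromal level in podocytes. Meis1 fell by 4.42 ± 0.41 (adjusted p = 1.60e-07) and Meis2 by 2.65 ± 0.30 (adjusted p = 1.93e-06). Nr2f1 was at -0.52 ± 0.22 and did not pass (adjusted p = 0.0651). It passed in an edgeR fit of these classes alone (adjusted p = 0.0203) and with a lead of 0.2 (0.0145). It also passed with free RNA taken over both libraries (0.0213) and with clusters, at -2.24 (2.65e-07). Gata3 fell by 2.04 ± 0.53 (adjusted p = 0.00432), from 116 counts in stromal cells to 15 in podocytes, both below the free RNA level. With doublets kept, podocyte Gata3 was at 0.059 ± 0.43 and was not called (adjusted p = 0.937). Stromal markers summed to 365 and 353 CPM in podocytes with 1 of 8 at 0 in each library.

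Among the 26 relatives, 6 were higher and 14 lower in podocytes. Foxd2, a forkhead paralogue of Foxd1, was higher by 3.11 ± 0.17 (adjusted p = 3.20e-10), at 110 and 90 CPM against 11.2 and 11.3 CPM in stroma. Pknox2 was higher by 1.42 ± 0.16 (adjusted p = 1.10e-06). Gata6, the GATA gene of stroma, fell by 8.62 ± 0.40 (adjusted p = 4.90e-11), to 0 and 2 counts. Tbx3 fell by 6.89 ± 0.48 (adjusted p = 5.16e-09) and Tcf15 by 5.45 ± 0.55 (adjusted p = 4.76e-07). Of the 29 other regulators, 4 were higher and 20 lower, led by Hic1 at -8.43 ± 0.40 (adjusted p = 6.45e-11), Twist1 at -7.33 ± 0.67 (adjusted p = 2.50e-07) and Twist2 at -6.84 ± 0.73 (adjusted p = 2.20e-06). The podocyte sums of these 3 genes rested on 2 to 4 counts.

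**Figure D2:**
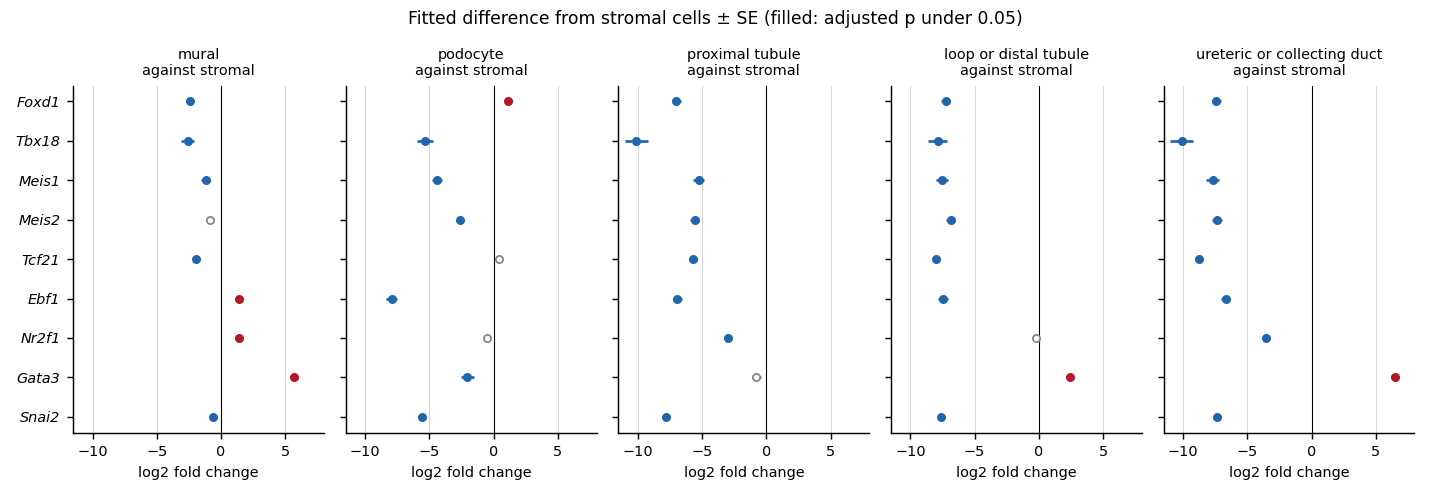
Each panel plots 1 class against stromal cells, with the fitted log2 fold change ± SE on the horizontal axis and the 9 transcription factors on the vertical axis. Filled points passed an adjusted p of 0.05 (red higher, blue lower) and open grey points did not; Gata3 is on the right in mural, loop or distal and ureteric or collecting duct cells, Foxd1 only in podocytes, and Tbx18 points in the tubular classes, which had 0 or 1 count, depend on the fit's prior count.

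Tubular epithelium served as the outgroup of the stroma. In proximal tubule cells 8 of 9 members were lower and none higher, where 60.7% of all genes tested were called (31.3% higher and 29.4% lower). In loop or distal tubule cells 7 were lower and 1 higher, with 58.7% of all genes called (29.8% higher and 29% lower). In ureteric or collecting duct cells 8 were lower and 1 higher, with 49.6% called (26.3% higher and 23.3% lower). The members' median log2 fold changes were -5.68, -7.47 and -7.36 in that order, with Tbx18 set at its bound where it had 0 counts, beside 0.00, -0.02 and 0.01 over all genes tested. The 3 comparisons share the stromal sums.

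Foxd1 was at -7 ± 0.33 in proximal tubule (adjusted p = 2.08e-11), at -7.24 ± 0.34 in loop or distal tubule (adjusted p = 4.57e-11) and at -7.42 ± 0.35 in ureteric or collecting duct cells (adjusted p = 5.76e-11). The stromal level was 158, 174 and 176 times these classes' levels over both libraries. Tbx18 had 0 counts in proximal tubule and in ureteric or collecting duct cells, at least 123-fold and at least 93.8-fold lower than in stromal cells with 3 counts over both libraries as the floor. Without the cluster held by replicate 1 the bounds were at least 64.6-fold and at least 49.2-fold. In loop or distal tubule cells it had 1 count. Snai2 was between -7.78 and -7.36 and Tcf21 between -8.76 and -5.68 across the 3 classes.

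The MEIS genes were higher in proximal than in more distal classes. Meis1 was at 20.2 and 22.0 CPM in proximal tubule cells and 1.99 to 7.35 CPM in the more distal classes. Meis2 was at 31.1 and 26.3 CPM in proximal tubule cells and 6.51 to 19.9 CPM in the distal classes, so that proximal cells were above the others in both libraries for both genes. These levels were below those of free RNA, 88.8 and 120 CPM for Meis1 and 397 and 395 CPM for Meis2, and differences between tubular classes were not tested.

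Gata3 was the exception among the members in tubules. It was higher in ureteric or collecting duct cells by 6.51 ± 0.32 (adjusted p = 1.02e-10), 82.6 and 117 times the stromal level, and higher in loop or distal tubule cells by 2.38 ± 0.31 (adjusted p = 4.41e-06). In proximal tubule cells it was at -0.77 ± 0.37 and was not called (adjusted p = 0.0844). It was called lower there in an edgeR fit of these classes alone, at -0.93 (adjusted p = 0.0205). With a lead of 0.2 it was at -1.39 (0.015), and with clusters at -2.84 (2.89e-07). Nr2f1 fell by 3.57 ± 0.27 in ureteric or collecting duct cells (adjusted p = 8.55e-09) and by 2.98 ± 0.25 in proximal tubule cells (adjusted p = 1.92e-08). In loop or distal tubule cells Nr2f1 was at -0.26 ± 0.21 (adjusted p = 0.297), with a 95% interval from -0.67 to 0.15.

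The loop or distal gate was then divided, after its first values were seen, by the transporters that mark its segments. Cells with Slc12a1, the cotransporter of the thick ascending limb, and no Slc12a3 numbered 248 and 295. They held 2.93 and 2.65 CPM of Gata3 and 28.3 and 27.1 CPM of Nr2f1. Cells with Slc12a3, the cotransporter of the distal convoluted tubule, and no Slc12a1 numbered 45 and 107 and showed the reverse pattern. They held 163 and 98.6 CPM of Gata3 and 5.75 and 4.55 CPM of Nr2f1. The 2 subsets did not overlap for either gene, and detection of Gata3 at 3000 UMIs was 17.8% and 19.6% with Slc12a3 against 1.61% and 1.36% with Slc12a1.

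A single cluster that the markers left unnamed held 83.2% and 84.3% of the Gata3 counts of the loop or distal gate, in 38 and 87 of its cells. With classes taken from clusters, which leaves that cluster out, loop or distal Gata3 was lower than in stroma, at -1.66 ± 0.29 on the log2 scale (adjusted p = 8.10e-05). Of those 38 and 87 cells, 34 and 86 were cells with Slc12a3 and no Slc12a1. Gated cells in the clusters named loop or distal included 0 such cells. The direction of Gata3 in this class thus differed between the 2 groupings, which cover different cells. Markers of ureteric or collecting duct cells summed to 466 and 1489 CPM in the loop or distal gate, and their part in the result was not tested.

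Within the ureteric or collecting duct gate, Gata3 was held across both ends of the branching tree. Cells with the tip genes Ret or Wnt11 and no Aqp2 had 433 and 313 CPM. Cells with the water channel gene Aqp2 and neither tip gene had 578 and 410 CPM. Aqp2 cells were higher within each library, and the values of the 2 subsets overlapped between libraries.

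**Figure D3:**
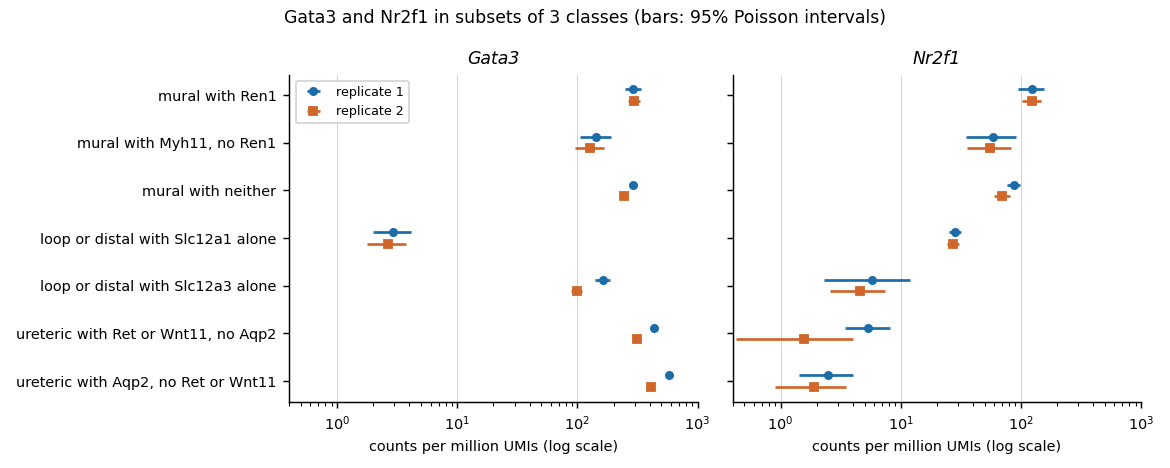
Gata3 (left) and Nr2f1 (right) in subsets of the mural, loop or distal and ureteric gates, as CPM on a logarithmic horizontal axis. Circles are replicate 1, squares replicate 2 and bars 95% Poisson intervals, which cover counting error only; Gata3 is at 163 and 98.6 with Slc12a3 against 2.93 and 2.65 with Slc12a1, and Nr2f1 is at 5.75 and 4.55 against 28.3 and 27.1.

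Relatives were mostly lower in tubules too. In proximal tubule 4 of 26 were higher and 18 lower, in loop or distal tubule 4 and 18, and in ureteric or collecting duct 7 and 14. Their median log2 fold changes were -2.46, -2.13 and -1.61, with genes at 0 set at their bound. Gata6 fell by 7.45 ± 0.30, 7.24 ± 0.30 and 7.34 ± 0.31, with adjusted p-values of 4.77e-12, 1.71e-11 and 1.88e-11. Its direction in the ureteric or collecting duct class was opposite to that of Gata3 and of Gata2, which was higher by 3.68 ± 0.25 (adjusted p = 3.19e-09) at 78.2 and 71.3 CPM. Ebf2 had 1 count in each of the proximal and the loop or distal class and 2 in the ureteric class, against 20.1 and 4.67 CPM in stroma. Ebf3 fell by 6.64 ± 0.56 in proximal tubule (adjusted p = 4.37e-08) and by 6.53 ± 0.56 in ureteric or collecting duct (adjusted p = 9.31e-08), and had 2 counts in loop or distal tubule. Of the 29 other regulators, 25 were lower and 2 higher in proximal tubule, 23 and 3 in loop or distal tubule, and 24 and 3 in ureteric or collecting duct. Their medians were -3.02, -2.42 and -2.43. Foxf1 had 0 counts in all 3 classes, and Twist2 had 0 in ureteric or collecting duct and 2 in loop or distal tubule. Twist1 fell by 7.59 ± 0.59 in proximal tubule (adjusted p = 1.65e-08). Hic1 fell by 7.40 ± 0.32 in proximal tubule (adjusted p = 7.89e-12), Prrx1 by 9.20 ± 0.48 in loop or distal tubule (adjusted p = 1.21e-10) and Zeb2 by 8.20 ± 0.32 in ureteric or collecting duct cells (adjusted p = 1.06e-11).

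Stromal cells were then divided into cortical (424 and 425 cells) and medullary (250 and 274 cells) subsets by which of 2 sets of 4 markers led, none of them a member. Foxd1 was lower and Tcf21 higher in medullary cells, and the other 7 members were not called. Thus 2 of 9 members were called, where 4.85% of the 17620 genes tested were called (2.34% higher and 2.51% lower), and the members' median log2 fold change was -0.42, beside -0.04 over all genes. Foxd1 was at 88.1 and 134 CPM in cortical and 22.8 and 24.3 CPM in medullary cells, a fall of 2.26 ± 0.23 on the log2 scale (edgeR adjusted p = 7.39e-06). Tcf21 was at 255 and 250 CPM in cortical and 428 and 459 CPM in medullary cells, higher by 0.78 ± 0.16 (adjusted p = 0.00764). The levels of the subsets did not overlap for either gene, and their directions were opposite.

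Ebf1 was at 828 and 1079 CPM in cortical and 509 and 513 CPM in medullary cells, a difference of -0.94 ± 0.28 that did not pass (adjusted p = 0.064). It passed with no filter on low counts (adjusted p = 0.0133), with doublets kept (0.04) and with free RNA taken over both libraries (0.0476). Snai2 was at 116 and 125 CPM in cortical and 165 and 160 CPM in medullary cells, a difference of 0.39 ± 0.17 (adjusted p = 0.266). Meis1 differed by -0.47 ± 0.34 (adjusted p = 0.595), Meis2 by -0.42 ± 0.29 (adjusted p = 0.58) and Nr2f1 by 0.44 ± 0.22 (adjusted p = 0.363). Tbx18 differed by 0.34 ± 0.47 (adjusted p = 0.842), or by 0.13 ± 0.49 (adjusted p = 0.983) without the cluster held by replicate 1, and Gata3 by -0.88 ± 0.53 (adjusted p = 0.488). A fit of these 2 subsets alone, with 1 residual degree of freedom, called 6 of the 9, adding Ebf1, Meis1, Meis2 and Snai2.

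Relatives of Ebf1 and Tbx18 were among the regulators that parted cortex and medulla. Of 25 tested relatives 3 were higher and 3 lower in medullary cells. Ebf2 fell by 3.97 ± 0.81 (adjusted p = 0.00576) and Ebf3 by 3.14 ± 0.42 (adjusted p = 0.000123), the latter from 40.7 and 43.9 CPM to 5.97 and 4.09 CPM. Tbx3 was higher by 1.80 ± 0.27 (adjusted p = 0.0003) and Tbx2 by 1.79 ± 0.23 (adjusted p = 6.99e-05). Of 29 other regulators 6 were higher and 4 lower. The largest changes among the genes that passed were Klf4 at -2.13 ± 0.46 (adjusted p = 0.00782), Hoxd10 at 1.61 ± 0.18 (adjusted p = 1.52e-05) and Sall1, a zinc finger gene also used by nephron progenitors, at -1.57 ± 0.29 (adjusted p = 0.00257). Medullary cells also carried more of the 6 early nephron markers, 178 and 299.8 CPM against 14.6 and 17.0 CPM in cortical cells, and of the 7 endothelial markers, 132 and 153 CPM against 47.0 and 38.4 CPM. Wnt4 is in both the early nephron list and the list that chose medullary cells, so the gate itself favours the early nephron excess. The part of these markers in the differences was not tested.

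**Figure D4:**
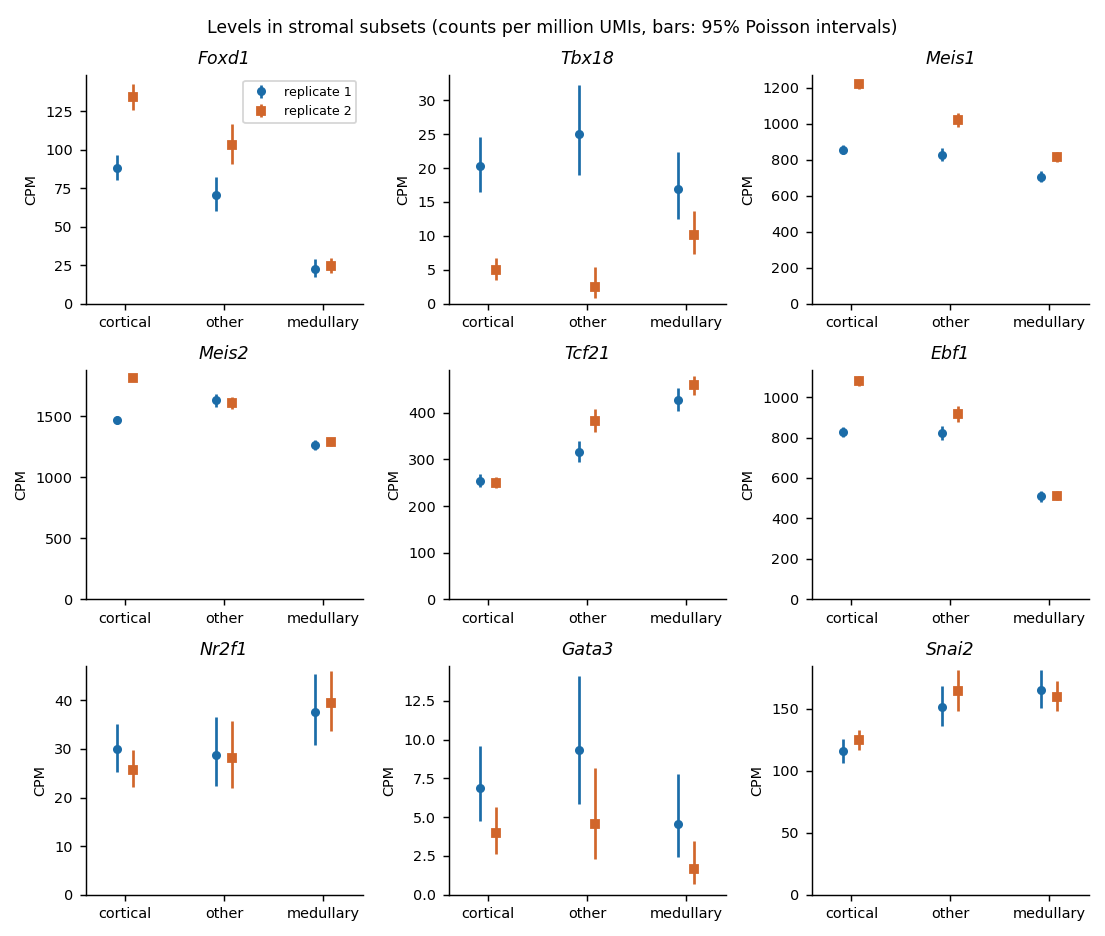
Levels of the 9 transcription factors in cortical, other and medullary stromal cells, as CPM on a linear axis from 0. Circles are replicate 1, squares replicate 2 and bars 95% Poisson intervals, which cover counting error only; Foxd1 is lower and Tcf21 higher in medullary cells in both libraries, and the libraries differ most for Tbx18.

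Detection in the same cell was described after thinning to 3000 UMIs, where a missing count does not show that a cell lacks the transcript. Stromal cells had a mean of 3.59 and 3.69 of the 9 members detected, mural cells 3.41 and 3.23, podocytes 1.80 and 1.65, and proximal tubule cells 0.207 and 0.183. At least 4 members were detected in 54.2% and 59.9% of stromal cells and in 1.58% and 1.01% of podocytes.

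Foxd1 and Tcf21, so similar across classes, were detected together less than the product of their shares within the stroma. Tcf21 was found in 28.6% and 38.4% of stromal cells with Foxd1 and in 53.1% and 57.9% of those without. The same held within cortical cells alone, at 27.0% and 38.5% against 43.3% and 49.0%. Snai2 was found in 16.4% and 14.6% of stromal cells with Foxd1 and in 28.9% and 32.5% of the rest. In podocytes the shares for Tcf21 were close, at 74.1% and 64.9% with Foxd1 and 71.2% and 61.5% without. Ebf1 went the other way in stroma, found in 86.4% and 82.3% of cells with Foxd1 and in 73.6% and 76.5% of the rest. Within cortical cells this did not hold in both libraries, at 85.4% against 81.5% in replicate 1 and 87.2% against 90.3% in replicate 2.

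Tcf21 and Snai2 were found together in 149 and 168 stromal cells, 1.26 and 1.25 times the product of their shares. Ebf1 was found in 31.0% and 33.3% of the 42 and 12 stromal cells with Tbx18 and in 77.9% and 78.2% of the rest. Without the cluster held by replicate 1, the shares were 68.4% and 44.4% of 19 and 9 cells, against 79.6% and 78.3% of the rest. In mural cells Tcf21 and Gata3 were seldom found together: 3 and 1 mural cells held both, where the product of the shares gives 24.3 and 9.67. Gata3 was thus found in 5.17% and 3.45% of mural cells with Tcf21 and in 51.6% and 38.8% of those without. The mural gate also held stromal markers, at 1270 and 1287 CPM. Its log2 fold change of Tcf21 from stroma was -1.94 with gates and -4.44 with classes taken from clusters. The part of cells near the stromal gate in this pattern was not tested. Nr2f1 and Gata3 were found together in 36 and 16 mural cells, 1.46 and 1.41 times the product.

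**Figure D5:**
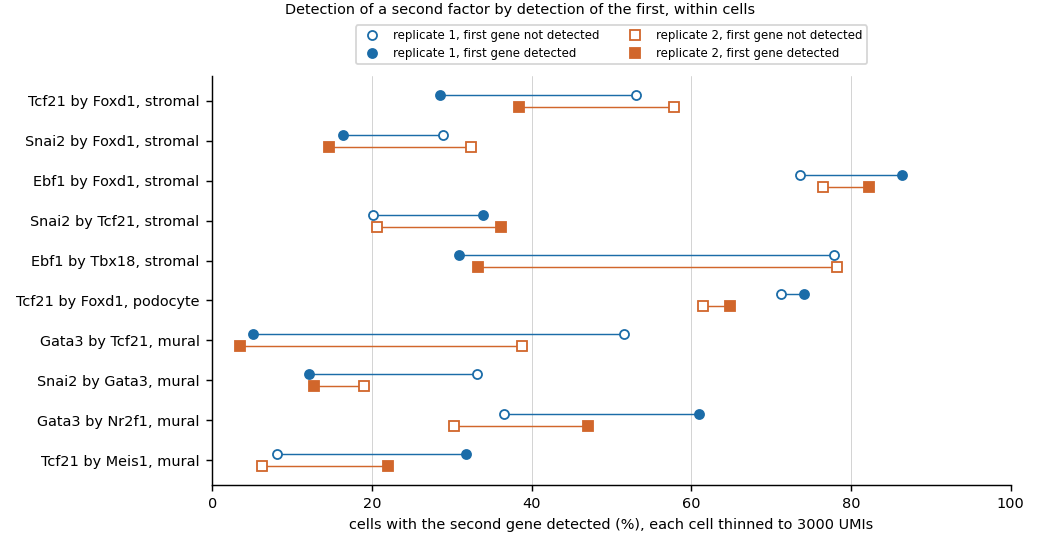
For each pair, the horizontal axis gives the percentage of cells with the second gene detected, among cells with the first gene detected (filled) and not detected (open), with every cell thinned to 3000 UMIs. Circles are replicate 1 and squares replicate 2; the filled points lie left of the open ones for Tcf21 by Foxd1 in stroma (28.6% and 38.4% against 53.1% and 57.9%) and for Gata3 by Tcf21 in mural cells (5.17% and 3.45% against 51.6% and 38.8%).

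The genes with the most similar levels were sought among 10830 genes with at least 20 CPM in some class in both libraries, leaving out members and gate markers. Similarity was the Pearson r of log2(CPM + 5) over the 22 sums. Pknox2 came first for Foxd1 (r = 0.981), at 73.6 CPM on average in stromal cells and 199 CPM in podocytes, followed by Svep1 (0.953) and C1qtnf7 (0.942). Svep1 also ranked high for Tcf21 (0.963), after Gm10824 (0.969), a gene that overlaps Tcf21 on the opposite strand, and the adenylate cyclase gene Adcy2 (0.969). For Nr2f1 the first was A830082K12Rik (0.983), which also overlaps it on the opposite strand, and the next, Mfge8 and Hoxa3, were much lower at 0.856 and 0.843.

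Snai2 was followed by the collagen gene Col12a1 (0.963), the fibrillin gene Fbn1 (0.961) and Itih5 (0.959), and Tbx18 by the microfibril gene Mfap5 (0.943), Ano5 (0.925) and Hhip (0.923). Without the cluster held by replicate 1, Ano5 came first for Tbx18 (0.969), Mfap5 was at rank 5 and Hhip at rank 14. Meis1 was followed by Lhfp (0.938), Mgp (0.929) and the tropomyosin gene Tpm2 (0.919), which was at rank 9 without that cluster. Ebf1 was followed by Sparcl1 (0.978), Piezo2 (0.972) and Serpine2 (0.970). Meis2 was followed by 2700033N17Rik (0.961), Jam3 (0.942) and G630016G05Rik (0.941), and Gata3 by the adenosine receptor gene Adora1 (0.909), Pde8b (0.906) and Fgf12 (0.887). Among the members themselves, Meis1 and Snai2 had an r of 0.920 and Ebf1 and Snai2 of 0.879, while Meis1 and its paralogue Meis2 had 0.799. The lowest was Foxd1 with Gata3, at -0.31.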

How the data were processed

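Both libraries are droplet single-cell RNA-seq of kidney at postnatal day 0, and both carry 1 genotype label. The deposited tables hold raw counts of UMIs per gene and barcode for all barcodes, with no normalization by the authors. Cell Ranger 6.0.1 and the build mm10 are named in the submitters' processing notes, and the file headers name Cell Ranger 4. CPM are counts per 1000000 UMIs of a class, not corrected for free RNA.

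Doublets were taken as the highest Scrublet scores (scanpy 1.11.5), with a called share that scales with the number of kept cells. The 11 classes with 20 or more cells in each library were summed over cells and fitted in edgeR 4.0.16 (R 4.3.3, limma 3.58.1) with TMM scaling, filterByExpr and the library as a block, since both classes of a comparison come from the same library. The fit had 10 residual degrees of freedom, or 12 with stromal subsets. Tests were two-sided, with Benjamini-Hochberg adjustment over all tested genes except gate markers, and were checked on simulated counts. The simulated counts had the same spread for all genes and no library effect, so that check does not cover the scatter of these data. No source says the libraries come from separate animals, so p-values are limited to these 2 libraries. They measure the scatter of classes between the libraries that remains after the block, pooled over the classes of the fit. Cells were not treated as replicates, and levels in the figures of subsets carry exact 95% Poisson intervals that cover counting error only. DESeq2 1.42.0 (its test, or its size factors in edgeR), no filter on low counts, no replicate block, a fit of only the 2 classes compared, Leiden clusters (igraph 0.11.9; 2000 variable genes, 30 components, 15 neighbours, resolution 1), a lead of 0.2, at least 10000 UMIs, kept doublets and single libraries (values with no test) were alternatives, and 2 more were chosen after seeing the data: free RNA taken over both libraries, and leaving out the cluster held by 1 library.

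The members, gene lists and markers were chosen with earlier results of these data known. Named are all members, for each member the 3 genes of nearest profile, and per comparison at most 3 passing relatives and the 3 largest changes of each list. A gene that this rule names in the mural comparison is not reported here.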

Additional observations from a re-analysis of the deposited data

Results flagged for a closer look

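Gata3 was also found outside the classes compared. The urothelial gate, with 7 cells in each library, was too small for the fit, and it held 302 CPM of Gata3 in replicate 1 and 379 CPM in replicate 2, from 51 and 72 counts. In both libraries the lower 95% Poisson bound was above the level of 3 counts, 17.8 and 15.8 CPM. Gata3 was detected in 42.9% and 71.4% of these cells at 3000 UMIs.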

How the results depend on the processing

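Values for the 9 members in the 6 comparisons kept their direction under each tested alternative, with 2 exceptions for Gata3. With doublets kept, Gata3 in podocytes was at 0.059 (adjusted p = 0.937), and with Leiden clusters Gata3 in loop or distal tubule was at -1.66 (adjusted p = 8.10e-05). A fit of the 2 stromal subsets alone called 6 members, where the fit of all classes called 2. No other alternative moved a count of called members by over 1.5 times. Without the replicate block, 6 members were called in mural cells in place of 8, and the counts of the other 5 comparisons were equal. Calls of Meis1 and Snai2 in mural cells were also lost with free RNA taken over both libraries (adjusted p = 0.0909 and 0.0579), and that of Snai2 with at least 10000 UMIs (0.0661); the cause was not tested. Leiden clusters moved podocyte Nr2f1 to -2.24 and proximal tubule Gata3 to -2.84, both called. Of all genes, 4314 were called in mural cells with Leiden clusters against 2345, and 1504 between stromal subsets in the fit of those 2 alone against 855. Leaving out a library gives values with no test, since no residual degrees of freedom remain. These values are differences of log2 CPM with a prior count of 2, set against the fitted values. Without replicate 1, 9 of 54 differed from the fit by more than the spread between the libraries, and without replicate 2, 11 did. These counts include differences in method: Tbx18 in proximal tubule cells was at -10.1 in the fit and at -6.73 and -4.97 in the single libraries. No called value reversed. The uncalled Tbx18 difference between stromal subsets was at -0.29 without replicate 2. Of 54 mean levels, 10 moved by over 1.5 times with doublets kept, all in podocytes, tubules or collecting duct (podocyte Ebf1 11.6 against 3.56 CPM). With the stricter gate 3 did, mural Foxd1 (8.06 against 15.4 CPM), mural Tcf21 (45.3 against 88.6 CPM) and proximal tubule Gata3 (1.47 against 2.45 CPM). Low counts limit the precision of Tbx18 and of podocyte Gata3.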

Other observations

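Erythroid-gated cells, 40 in replicate 1 and 54 in replicate 2, differed between the libraries in several members. In that order Ebf1 was at 317 and 44.8 CPM, Meis2 at 550.4 and 81.5 CPM, and Nr2f1 at 52.8 and 1.60 CPM. Median genes per cell were 650.5 and 592. Among erythroid-gated cells with at least 10000 UMIs, 15 in replicate 1 had a median of 3716 genes and 40 in replicate 2 a median of 600. Those 15 cells held 331254 of the 492364 UMIs of the gate in replicate 1. The gates of the 2 libraries thus differ in make-up, and the levels above are not those of like cells. No test was run on these values.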
